A study of Mus musculus with 2 samples.

Results

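The genes examined here are the amino acid transporter genes of mouse splenic dendritic cells (DCs), compared between 2 sorted populations. They were taken by name, as every gene on the array whose symbol places it in the solute carrier families Slc1, Slc3, Slc6, Slc7, Slc36, Slc38 or Slc43. The rule found 63 of the 18194 genes that had a probe set naming a single gene, and 3 of the 63 (Slc36a1os, Slc6a19os and Slc7a6os) are genes named for lying on the strand opposite a transporter gene, not transporters. The rule itself used no measured value, apart from the probe set that stood for each gene, which was the brightest by its mean over both arrays. The families were chosen with earlier results of these data known.

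The populations were CD8α+ and CD8α- DCs, both sorted from spleens of C57BL/6 mice by a gate for CD11c that left out CD3+ and B220+ cells. All mice carried a B16 melanoma that produced Flt3 ligand, a cytokine that expands DCs, for 10 to 12 days, so both populations come from tumour-bearing, Flt3 ligand-expanded animals, and neither was stimulated after the sort. The number of mice behind a sample, and whether cells of several mice were pooled, is not given in the sources used here. Total RNA of each population was hybridised as biotin-labelled cRNA to 1 Affymetrix array, and values are log2 signals. With 1 array per population, no difference below has a replicate or a test, and differences between individual mice, sorts or hybridisations are contained in each of them. In RNA from a sorted population, fewer cells of a type and less RNA per cell also cannot be told apart.

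Amino acid transporters move amino acids across the plasma membrane and the lysosomal membrane. Sodium-coupled carriers of the Slc1 and Slc38 families concentrate small neutral amino acids such as glutamine and alanine, and exchangers built from a Slc7 light chain and a Slc3 heavy chain trade these for leucine and other large or charged amino acids. The supply reaches the kinase complex mTORC1, which senses amino acids at the lysosome and controls protein synthesis. Several Slc6 and Slc43 members carry other substrates, among them taurine, creatine, γ-aminobutyric acid (GABA), monoamines and nucleobases, so family membership is wider than amino acid transport.

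Most of the transporter transcripts differed little between CD8+ and CD8- DCs, as did most of all measured genes. The larger differences were mostly lower values in CD8+ DCs, the direction in which more of all measured genes also passed 2-fold. Genes were called measured if at least 1 array gave a log2 signal of 3.85 or more, the median over the whole table, which serves as a floor near background. Of the 63 genes, 33 (52.4%) were measured, against 62.7% of all genes. Of these, 29 were above the floor on both arrays, 1 on the CD8+ array alone and 3 on the CD8- array alone, and genes of the last kinds had to differ to be counted. At 2-fold or more, 0 of the 33 were higher in CD8+ DCs, beside 3.55% of the 11404 measured genes, and 2 were higher in CD8- DCs, beside 5.97%. At 1.5-fold the counts were 1 higher in CD8+ DCs, beside 8.49% of all measured genes, and 7 higher in CD8- DCs, beside 11.5%. For Slc6a12 and Slc7a13, which are among the 7, the CD8+ value was below the floor, and against the floor the differences were at least 1.18-fold and at least 1.14-fold. Both counts in favour of CD8+ DCs were below the share of all measured genes, by few genes, which was not tested. In favour of CD8- DCs, the count at 2-fold was close to that share. The 7 at 1.5-fold were above it, by few genes, and this was not tested. They include Slc6a12 and Slc7a13, and the share over all measured genes likewise includes genes with a value below the floor. The median log2 difference, CD8+ minus CD8-, was 0.00 over the 33 genes and 0.03 over all measured genes. The 0.00 falls on Slc1a4 and Slc38a7, which had identical values on both arrays, as did 7.3% of all probe sets. Identical values do not show that expression was exactly equal. Of the 33 genes, 25 (75.8%) differed by less than 1.5-fold, against 79.99% of all measured genes.

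**Figure D1:**
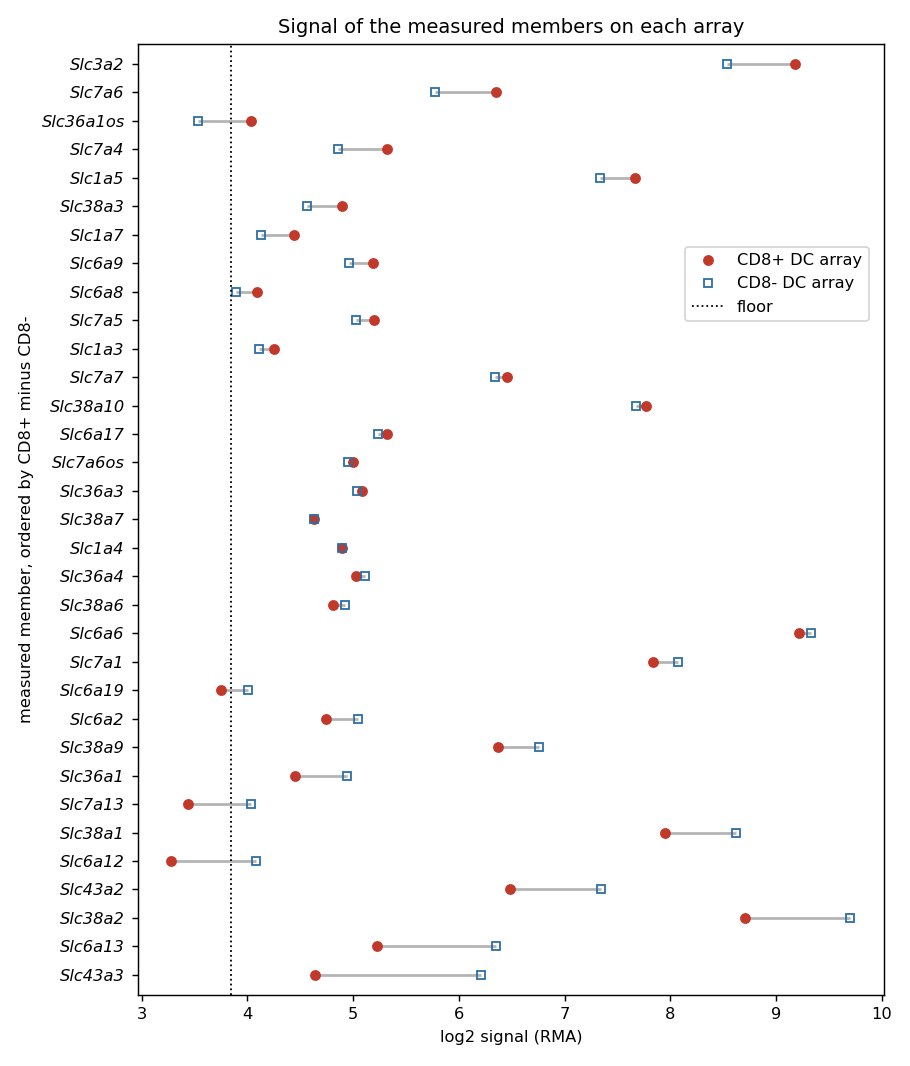
Log2 signal (x axis) of the 33 measured genes on the CD8+ DC array (filled red circles) and the CD8- DC array (open blue squares), 1 array each, ordered by the difference. The dotted line is the floor of 3.85. In 25 of the 33 pairs the points are less than 1.5-fold apart, and the widest gap, at Slc43a3, has the CD8+ value at 4.64 and the CD8- value at 6.21.

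The labels of the populations matched their markers. Cd8a was at 11.29 on the CD8+ array and 5.15 on the CD8- array, and all 6 general DC markers examined (such as Flt3 and Zbtb46) were measured with none past 2-fold. Markers of other cells that a CD11c+ gate could admit were also examined. Of 9 red pulp macrophage markers, 5 differed by more than 2-fold in favour of CD8- DCs (Adgre1, C1qa, C1qb, C1qc and Axl), though C1qc, below the floor in CD8+ DCs, by at least 1.72-fold when set against the floor. Vcam1 went the other way, at 5.52 in CD8+ DCs and 4.66 in CD8- DCs, and its 3 probe sets were all higher in CD8+ DCs, by 0.42 to 2.49. Spic, Mertk and Slc40a1 were below the floor on both arrays, and the summed linear signal of the 9 was 134 on the CD8+ array and 502 on the CD8- array. Of 7 monocyte markers on the array, 3 did so (Ccr2, Csf1r and Ms4a4c, of which Csf1r was also listed as a CD8- DC marker), with summed signals of 1889 and 5099 on the CD8+ and CD8- arrays, while Vcan and F13a1 were below the floor on both. The other measured monocyte markers were higher in CD8+ DCs, Lyz2 at 10.69 in CD8+ DCs and 10.11 in CD8- DCs, and Fcgr1 by 0.10, with its other probe set at -1.65. The summed signals of both lists, but not all of their genes, were higher in CD8- DCs, as were the transporters with the larger differences, and their part in those differences was not tested. Past 2-fold were also 7 of 8 CD8+ DC markers in favour of CD8+ DCs, 7 of 9 CD8- DC markers in favour of CD8- DCs, and, of 8 plasmacytoid DC markers, Ccr9 in favour of CD8+ DCs and Tcf4 and Spib in favour of CD8- DCs. Of the T cell and B cell markers, Il7r and Cd79b alone passed it, in favour of CD8- DCs, both with a CD8+ value below the floor and at least 1.59-fold and at least 6.72-fold against it, and of the NK cell, neutrophil, erythroid, platelet and B16 melanoma markers 0 did.

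In the Slc38 family of sodium-coupled neutral amino acid transporters, the members with the largest differences were lower in CD8+ DCs. Slc38a2 encodes SNAT2, a carrier of glutamine, alanine and other small neutral amino acids that many cell types induce when amino acids run short. It had a log2 signal of 8.70 on the CD8+ array and 9.70 on the CD8- array, and its difference of -0.997 fell just short of the 2-fold threshold. Its 3 probe sets all had the lower value in CD8+ DCs, with differences between -0.997 and -0.29. Slc38a1, which encodes the glutamine carrier SNAT1, was at 7.95 in CD8+ DCs, against 8.62 in CD8- DCs, a difference of -0.67, and its other probe set differed by -0.70. Slc38a1 and Slc38a2 lie next to each other on chromosome 15, with 0 protein-coding genes between them in the RefSeq annotation of GRCm38.p6. The next gene along, Slc38a4, also a neutral amino acid carrier, did not reach the floor on either array (2.07 and 1.91 in CD8+ and CD8- DCs).

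Slc38a9 encodes a lysosomal arginine-gated transporter that signals amino acid supply to mTORC1. It was at 6.37 in CD8+ DCs, against 6.76 in CD8- DCs, a difference of -0.39. Its 7 probe sets all had the lower value in CD8+ DCs, but their differences spread from -1.31 to -0.20, and the largest came from a dim probe set at 3.32 in CD8+ DCs, below the floor, and 4.62 in CD8- DCs. For Slc38a1, Slc38a2 and Slc38a9 together, grouped after their values were seen, 12 of 12 measured probe sets were lower in CD8+ DCs, a direction for which these genes were picked. Of the 63 measured probe sets of all members, 32 were higher in CD8+ DCs, 28 were lower and 3 were equal. Probe sets of a gene share the RNA of the same array, so they are no replicates.

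The rest of the Slc38 family differed less. Slc38a10 was at 7.77 in CD8+ DCs, against 7.67 in CD8- DCs, with 6 measured probe sets between 0.05 and 0.30. Slc38a7, a lysosomal glutamine transporter, had 4.63 on both arrays. Slc38a6 was at 4.81 in CD8+ DCs and 4.93 in CD8- DCs. Slc38a3, which encodes the glutamine transporter SNAT3 of liver, kidney and brain, was at 4.90 in CD8+ DCs, against 4.57 in CD8- DCs, a difference of 0.33 in the other direction from SNAT1 and SNAT2. Slc38a5 was below the floor at 2.15 and 1.99 in CD8+ and CD8- DCs.

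The glutamine carriers thus did not all point one way. Slc1a5, which encodes ASCT2, an exchanger that brings glutamine into proliferating and activated cells, was at 7.67 in CD8+ DCs and 7.33 in CD8- DCs. Both of its probe sets were higher in CD8+ DCs, by 0.33 and 0.39. For scale, the pooled SD between the measured probe sets of a gene was 0.26 over the 16 members that had several, and 0.30 over all genes. That spread lies within the same arrays, so it holds no variation between mice, sorts or hybridisations. Slc1a4, which encodes the serine and alanine exchanger ASCT1, had 4.90 on both arrays, and another probe set of it was at 4.04 in CD8+ DCs and 3.49, below the floor, in CD8- DCs.

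Of the 5 measured genes of heteromeric exchangers, 4 were slightly higher in CD8+ DCs. Slc3a2 encodes the heavy chain CD98, which carries the light chains to the cell surface, and it had the largest difference of any measured member in favour of CD8+ DCs. It was at 9.18 in CD8+ DCs, against 8.53 in CD8- DCs, a 1.56-fold difference from its single probe set, and 829 measured genes differed more in that direction. Slc7a6, a light chain that exchanges cationic for neutral amino acids (y+LAT2), was at 6.35 in CD8+ DCs, against 5.77 in CD8- DCs, a difference of 0.58, or 0.49 in its other probe set. Slc7a7, the related light chain y+LAT1 that is known from macrophages and intestine, was at 6.45 in CD8+ DCs and 6.34 in CD8- DCs, and its other probe set differed by 0.50. Slc7a5, the leucine and tryptophan carrier LAT1 that rises in activated lymphocytes, was at 5.20 in CD8+ DCs and 5.03 in CD8- DCs. Across Slc3a2, Slc7a5, Slc7a6 and Slc7a7, grouped after their values were seen, 6 of 6 measured probe sets were higher in CD8+ DCs, by 0.11 to 0.64, again a direction for which the genes were picked, since Slc7a13 went the other way.

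The other heteromeric genes were at or below the floor. Slc7a8, which encodes the light chain LAT2, was at 3.55 in CD8+ DCs and 3.05 in CD8- DCs. Slc7a11, the light chain of the cystine and glutamate exchanger xCT, was at 2.76 and 2.60 in CD8+ and CD8- DCs, and its other probe set was also below the floor on both arrays. The heavy chain gene Slc3a1 and the light chain genes Slc7a9, Slc7a10, Slc7a12 and Slc7a15 were below it too. Slc7a13 reached the floor in CD8- DCs alone (3.44 in CD8+ DCs and 4.04 in CD8- DCs), and against the floor that is at least 1.14-fold lower in CD8+ DCs.

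**Figure D2:**
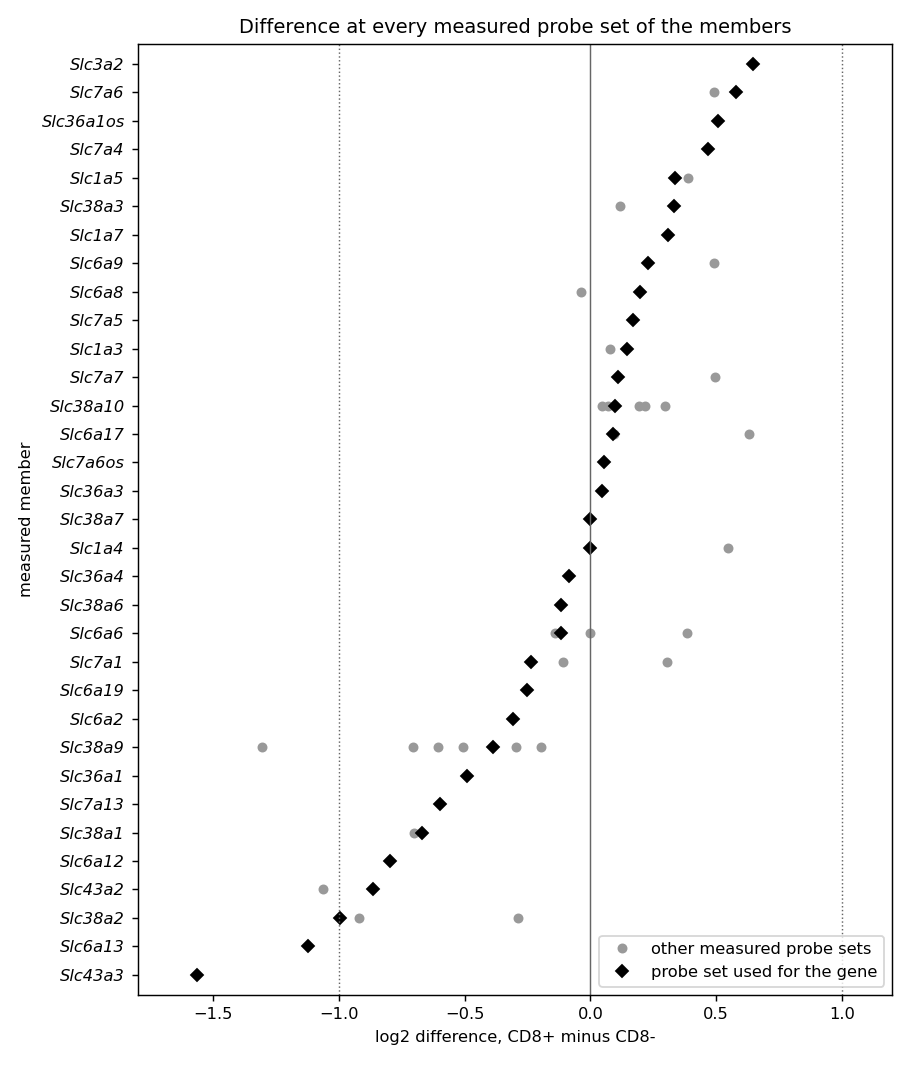
Log2 difference, CD8+ minus CD8- (x axis), at every measured probe set of the 33 measured genes. Black diamonds are the probe sets that stood for the genes, grey circles are their other measured probe sets, and dotted lines mark 2-fold. The 7 probe sets of Slc38a9 lie left of 0 but spread from -1.31 to -0.20, and the 3 of Slc38a2 lie between -0.997 and -0.29.

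Among the cationic amino acid transporters, which supply arginine and lysine, the ubiquitous member Slc7a1 (CAT1) was at 7.83 in CD8+ DCs and 8.07 in CD8- DCs. Its 3 probe sets disagreed in sign, from -0.24 to 0.30. Slc7a2 (CAT2), the arginine transporter that activated macrophages induce, was below the floor at all 4 of its probe sets, with 2.33 in CD8+ DCs and 2.42 in CD8- DCs at the one that stood for it. Slc7a3 and the lysosomal Slc7a14 were also below the floor. Slc7a4, a relative for which amino acid transport is uncertain, was at 5.32 in CD8+ DCs, against 4.86 in CD8- DCs, a difference of 0.47, and its other probe sets were below the floor.

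The Slc43 family held the largest difference. Slc43a3, known from work on the human protein as a transporter of purine nucleobases, was at 4.64 in CD8+ DCs and 6.21 in CD8- DCs. The difference of -1.56, or 2.96-fold, rests on 1 probe set, and 342 measured genes were lower in CD8+ DCs by more. Slc43a2, which encodes LAT4, a facilitated carrier of leucine, isoleucine, methionine and phenylalanine, was at 6.48 in CD8+ DCs, against 7.34 in CD8- DCs, a difference of -0.87. Another measured probe set of it differed by -1.06, past 2-fold. Slc43a1 (LAT3), with a single coding gene between it and Slc43a3 on chromosome 2, had 3.48 on both arrays, below the floor.

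The proton-coupled Slc36 carriers of small amino acids, some of which work in lysosomes, differed little. Slc36a1 (PAT1) was at 4.45 in CD8+ DCs, against 4.94 in CD8- DCs, a difference of -0.49. Slc36a4 was at 5.03 and 5.12 and Slc36a3 at 5.08 and 5.04 in CD8+ and CD8- DCs. Slc36a2 was below the floor. Each of these 4 genes had 1 probe set.

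Of the 20 Slc6 genes, 8 were measured, and the member past 2-fold carries GABA rather than a protein-building amino acid. Slc6a13, which encodes the GABA and taurine transporter GAT2, was at 5.23 in CD8+ DCs, against 6.35 in CD8- DCs, a difference of -1.12, or 2.18-fold, from 1 probe set. Its neighbour on chromosome 6, Slc6a12, encodes the betaine and GABA transporter BGT1. It was at 3.28 in CD8+ DCs, against 4.08 in CD8- DCs, a difference of -0.80, but the lower value is below the floor and the difference is at least 1.18-fold on that bound. The taurine transporter gene Slc6a6 was at 9.21 in CD8+ DCs and 9.33 in CD8- DCs, and its 4 probe sets lay on both sides of 0, from -0.14 to 0.39.

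The remaining measured Slc6 genes stayed under 1.5-fold. Slc6a9, the glycine transporter GlyT1, was at 5.19 in CD8+ DCs and 4.96 in CD8- DCs. The creatine transporter gene Slc6a8 was at 4.09 in CD8+ DCs and 3.90 in CD8- DCs, just above the floor. Slc6a17, a vesicular carrier known from neurons, was at 5.32 in CD8+ DCs, against 5.23 in CD8- DCs, with another probe set at 0.63. Slc6a2, the noradrenaline transporter gene, was at 4.74 in CD8+ DCs and 5.05 in CD8- DCs, and its 3 other probe sets were below the floor. Slc6a19, the neutral amino acid carrier B0AT1 of gut and kidney, was at 3.75, below the floor, in CD8+ DCs and 4.002 in CD8- DCs. The other 12 genes, which include the dopamine and serotonin transporter genes Slc6a3 and Slc6a4, were below the floor on both arrays.

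Glutamate carriers of the Slc1 family were near the floor. Slc1a3 was at 4.26 in CD8+ DCs and 4.11 in CD8- DCs, and Slc1a7 was at 4.44 and 4.13. Slc1a1, Slc1a2 and Slc1a6 were below the floor on both arrays, although a probe set shared by Slc1a2 and another gene, and so not used, had 4.15 in CD8+ DCs and 3.84 in CD8- DCs. Of the opposite-strand genes, Slc7a6os was at 5.002 in CD8+ DCs and 4.95 in CD8- DCs beside the larger difference of its neighbour Slc7a6. Slc36a1os was at 4.04 in CD8+ DCs and 3.53, below the floor, in CD8- DCs, while Slc36a1 was lower in CD8+ DCs. Slc6a19os was below the floor. In all, the 30 genes below the floor on both arrays had signals between 1.80 and 3.73 and differences between -0.34 and 0.80, the last of these at the proline transporter gene Slc6a20a. Low signal does not show that a transcript is absent.

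**Figure D3:**
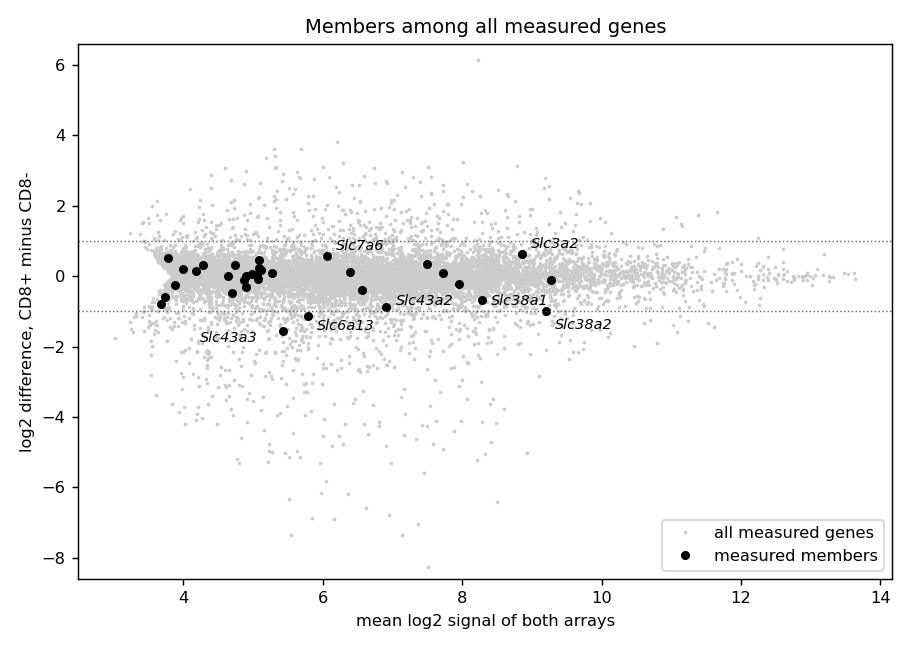
Log2 difference, CD8+ minus CD8- (y axis), against the mean log2 signal of both arrays (x axis) for the 11404 measured genes (grey) and the 33 measured transporter family genes (black). Dotted lines mark 2-fold. The black points lie between -1.56 and 0.64, inside a grey cloud that reaches from -8.26 to 6.14.

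Promoter sequence was available from RefSeq (GRCm38.p6) for 46 of the 63 genes, as 67 windows from 250 bases before to 50 bases after an annotated start. The windows were searched on both strands for the composite element of ATF4 and C/EBP factors (TGATGNAAN), which serves the amino acid response, for the antioxidant response element bound by Nrf2 (TGACNNNGC) and for the E-box CACGTG. The composite element was in 5 of the 67 windows, the antioxidant element in 12 and the E-box in 9. Of all 32851 promoter windows, 3.95%, 12.4% and 7.15% held them. Each count was above that share, and this was not tested. Windows of neighbouring starts can overlap and share a match. By gene, 4, 10 and 9 of the 46 held the elements. The 67 windows also had more G and C, with a median of 56.3%, against 52.7% over all windows. Of the 23 measured genes with a window, 2 held the composite element (Slc1a4 and Slc7a7), 7 the antioxidant element and 3 the E-box. A match of letters is no binding site, and a motif that is missing from a window may lie elsewhere.

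The 250 bases before the start are shown for the measured genes with the largest differences in either direction that had an entry, so that the sequence before a neutral amino acid carrier, a GABA carrier, LAT4 and the parts of an exchanger can be read beside their values. They are given 5′ to 3′ on the strand of the gene, in lower case, with matches to the motifs in capitals. The Slc38a2 sequence (chr15:96699729-96699978, minus strand) lies in a window with 73.0% G and C, against a median of 52.7% over all windows, and its antioxidant element match begins at position -27, counting the start as 0. The Slc6a13 sequence (chr6:121300038-121300287, plus strand) has a match at -82, read on the opposite strand, and the Slc7a6 sequence (chr8:106168671-106168920, plus strand), in a window with 76.7% G and C, has one at -68. The sequences of Slc43a2 (chr11:75531444-75531693, plus strand) and Slc3a2 (chr19:8713898-8714147, minus strand) are shown as well, and their windows held no match to the 3 motifs. The antioxidant element match lay before genes that were lower and before a gene that was higher in CD8+ DCs. For Slc6a13, Slc7a6 and Slc43a2, which have several annotated starts, 1 is shown. The windows of the other Slc6a13 starts held no match to the motifs. The Slc7a6 match lay in the window of its other start too, at position -1. Slc38a1 and Slc43a3 had no entry.
Slc38a2 promoter: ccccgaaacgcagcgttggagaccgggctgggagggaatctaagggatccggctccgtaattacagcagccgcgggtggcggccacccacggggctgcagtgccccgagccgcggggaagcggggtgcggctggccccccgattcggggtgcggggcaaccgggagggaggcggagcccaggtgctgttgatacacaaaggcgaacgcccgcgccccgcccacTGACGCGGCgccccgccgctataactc
Slc6a13 promoter: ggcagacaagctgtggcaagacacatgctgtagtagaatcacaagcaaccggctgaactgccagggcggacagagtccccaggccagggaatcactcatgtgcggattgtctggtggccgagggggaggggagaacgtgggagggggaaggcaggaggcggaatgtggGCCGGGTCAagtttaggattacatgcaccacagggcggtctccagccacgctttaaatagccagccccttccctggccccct
Slc43a2 promoter: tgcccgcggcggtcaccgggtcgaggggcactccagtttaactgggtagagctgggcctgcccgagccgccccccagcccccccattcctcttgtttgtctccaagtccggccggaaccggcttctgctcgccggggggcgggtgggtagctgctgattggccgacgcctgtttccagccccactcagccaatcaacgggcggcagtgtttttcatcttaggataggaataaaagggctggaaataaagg
Slc3a2 promoter: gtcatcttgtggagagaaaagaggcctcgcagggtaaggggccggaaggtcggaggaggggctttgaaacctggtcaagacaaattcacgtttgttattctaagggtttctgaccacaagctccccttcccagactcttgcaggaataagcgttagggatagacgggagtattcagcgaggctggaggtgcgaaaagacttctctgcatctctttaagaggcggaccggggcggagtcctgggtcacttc
Slc7a6 promoter: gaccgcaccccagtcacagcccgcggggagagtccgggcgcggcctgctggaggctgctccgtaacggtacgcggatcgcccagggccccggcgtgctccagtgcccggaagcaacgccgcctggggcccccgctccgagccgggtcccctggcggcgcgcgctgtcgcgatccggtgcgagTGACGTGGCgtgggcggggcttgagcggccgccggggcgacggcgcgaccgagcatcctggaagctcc

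Genes around amino acid use were counted against the same background, 3.55% of all measured genes past 2-fold in favour of CD8+ DCs and 5.97% in favour of CD8- DCs. Of 35 measured genes of amino acid sensing by mTORC1, 1 passed 2-fold in favour of CD8+ DCs and 2 in favour of CD8- DCs (median difference -0.09), close to those shares. Sesn1, which encodes 1 of the sestrins that restrain mTORC1, was at 5.50 in CD8+ DCs, against 7.67 in CD8- DCs, a difference of -2.17. Its 3 measured probe sets lay between -2.44 and -2.17. Castor2, of the arginine sensor family, was at 3.89 in CD8+ DCs and 5.06 in CD8- DCs. Fnip2, a partner of folliculin in the control of the Rag GTPases, was at 9.34 in CD8+ DCs, against 6.94 in CD8- DCs, a 5.30-fold difference from 1 probe set. Lamtor1, whose probe set was the brightest of the list, differed little (10.52 in CD8+ DCs and 10.69 in CD8- DCs).

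In the GCN2 and ATF4 response to amino acid shortage, 1 of 21 measured genes passed 2-fold in favour of CD8+ DCs and 3 in favour of CD8- DCs (median -0.06), beside 3.55% and 5.97% of all measured genes. Ddit4, which encodes the mTORC1 inhibitor REDD1 and also responds to hypoxia and glucocorticoids, was at 5.67 in CD8+ DCs, against 10.09 in CD8- DCs, a 21.3-fold difference from 1 probe set. Nupr1, a stress-induced chromatin protein gene, was at 3.26, below the floor, in CD8+ DCs and 5.16 in CD8- DCs, at least 2.49-fold lower in CD8+ DCs. Atf3 was 2.70-fold lower in CD8+ DCs. Chac1, which encodes a glutathione-degrading enzyme induced by ATF4, was at 5.99 in CD8+ DCs and 4.72 in CD8- DCs, the opposite direction. Atf4 itself was at 9.77 in CD8+ DCs and 9.60 in CD8- DCs, and the asparagine synthetase gene Asns, a standard ATF4 target, was below the floor on both arrays. Of the 21 genes, 9 were higher and 11 lower in CD8+ DCs, beside 5999 higher and 5113 lower of the 11404 measured genes. At 1.5-fold, 1 was higher and 7 were lower in CD8+ DCs, beside 8.49% and 11.5% of all measured genes. This was not tested.

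Of 26 measured enzymes of amino acid metabolism, 3 differed by more than 2-fold in favour of CD8+ DCs, Ido1 among them only by a value below the floor, and 2 in favour of CD8- DCs (median 0.12), beside 3.55% and 5.97% of all measured genes. Gatm, which makes the precursor of creatine from arginine and glycine, was at 8.21 in CD8+ DCs and 6.79 in CD8- DCs, and the aspartate transaminase gene Got1 was at 8.23 and 7.19. Ido1, of tryptophan breakdown, was at 3.85 in CD8+ DCs, at the floor, and 2.62 in CD8- DCs, so its size is not measured. The glutamine synthetase gene Glul was at 7.01 in CD8+ DCs and 8.14 in CD8- DCs. Kynu, of the kynurenine pathway, was at 5.88 in CD8+ DCs and 7.13 in CD8- DCs. The brightest probe set of the list was that of Sat1, a polyamine enzyme gene, at 10.17 in CD8+ DCs and 10.76 in CD8- DCs. The arginase genes Arg1 and Arg2 were below the floor on both arrays.

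Among 15 measured genes of cystine and glutathione metabolism, 2 passed 2-fold in favour of each population (median 0.05), beside 3.55% of all measured genes for CD8+ DCs and 5.97% for CD8- DCs. The thioredoxin gene Txn1 was at 11.88 in CD8+ DCs and 10.40 in CD8- DCs, but its other measured probe set differed by 0.20. Hmox1, the heme oxygenase gene, was at 6.80 in CD8+ DCs and 5.65 in CD8- DCs. Gpx4, the lipid peroxide reductase gene, was at 8.24 in CD8+ DCs and 9.30 in CD8- DCs. Ggct was at 6.32 and 7.45, and its other measured probe set had the opposite sign (0.27). Gpx1, the brightest of the list, was at 12.00 in CD8+ DCs and 12.36 in CD8- DCs.

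**Figure D4:**
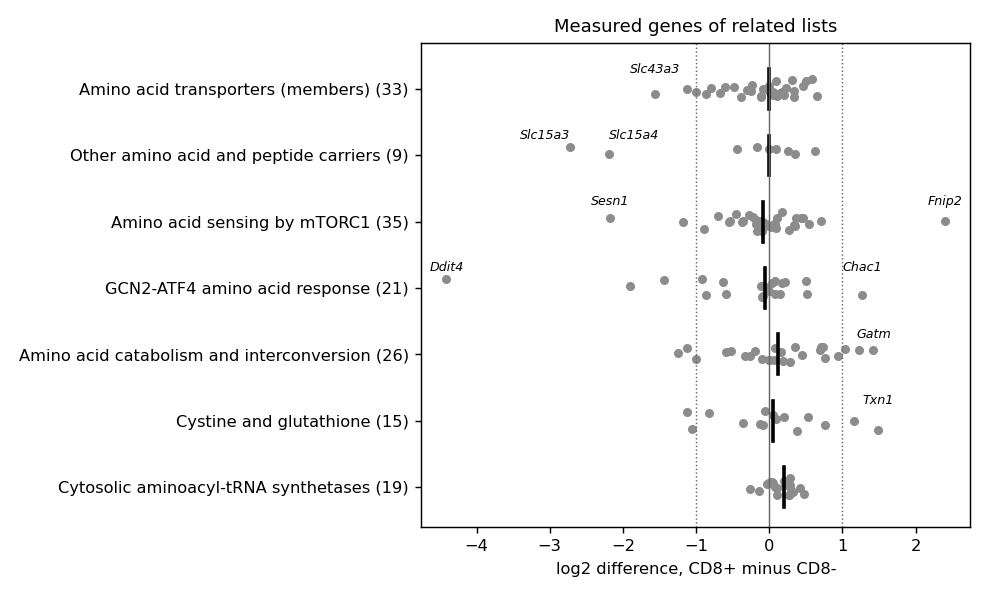
Log2 difference, CD8+ minus CD8- (x axis), of each measured gene (grey points) in the transporter families and 6 related lists, with the number measured in parentheses. Black bars are medians, dotted lines mark 2-fold, and vertical scatter within a list has no meaning. Medians lie between -0.09 and 0.20, while Ddit4, Sesn1, Slc15a3, Slc15a4 and Fnip2 stand furthest from 0.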

How the data were processed

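RNA of 1 CD8+ and 1 CD8- DC population was measured on 1 array each, and grouping follows the sample titles. The deposited values are log2 signals per probe set made by the authors with RMA, per the submitters' processing notes. The RMA version, and which arrays entered its normalisation, were not given in the sources used here. RMA equalises the distributions of arrays, and a change common to most transcripts is hidden by it. Of 45101 probe sets, 34958 named a single gene in the platform annotation, 34754 of them matched RefSeq (GRCm38.p6) by gene identifier, and 932 with several genes and 9211 without an entry were not used. The brightest probe set stood for a gene. Named genes are all measured members and, of 6 related lists, genes past 2-fold and the one with the brightest probe set. Other list genes were named after their values were seen (Asns, Arg1, Arg2, Iars, Mars1, Vars and Wars). The members and lists, and 13 marker lists, were chosen with earlier results of these data known. Where the dimmer value was below the floor of 3.85, a fold is a bound against it, while counts past a threshold use the deposited values. The number of arrays limits precision, and no paired or replicate test exists. Alternatives were median centring, a lowess trend (span 0.3), no floor or one at the 75th percentile, averaged probe sets, probe sets without names ending in _x_at or _s_at, values clipped at the floor, and thresholds of 1.5-fold and 4-fold. Python 3.11.15, numpy 2.4.6, pandas 2.3.3, statsmodels 0.14.6 and matplotlib 3.10.9 were used. The 2-fold count was tested on simulated data, with large differences planted in bright genes. Every probe set of a gene was given the same planted difference, so the choice of probe set was not tested. Differences in dim genes, the related lists and the promoter search were not tested in this way.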

Additional observations from a re-analysis of the deposited data

How the results depend on the processing

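No transporter family gene was 2-fold higher in CD8+ DCs under any alternative that kept the 2-fold threshold. The count at least 2-fold higher in CD8- DCs was 2, or 3 with each array centred on its median or with the lowess trend subtracted, where Slc38a2 passed the threshold. With the threshold at 1.5-fold, 1 was higher in CD8+ DCs, against 7 higher in CD8- DCs, and at 4-fold 0 were higher in CD8- DCs. The number measured was 63 without a floor, 13 with the floor at the 75th percentile and 28 with probe sets averaged. The median difference ranged from -0.24 (75th percentile) to 0.09 (averaged probe sets). Over all measured genes, the medians in these settings were -0.01 and 0.02. Of 206 values of single genes under alternatives, 202 moved by less than 0.30, the pooled SD between probe sets, and 3 changed sign. Many of the 206 could hardly move, so this count is no measure of robustness. A changed floor leaves the difference of a gene as it was, and median centring shifts all differences by the same small amount. Clipping changes only genes with a value below the floor, and averaging only genes with several probe sets. The 4 that moved more were Slc1a4 with averaged probe sets and Slc6a12, Slc7a13 and Slc36a1os with values clipped at the floor. No paired analysis was possible because each population had 1 array. Signals near the floor limit what can be said of the dim genes.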

Other observations

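Among carriers of amino acids and peptides outside the 7 families, 2 differed by more than any measured gene within them. Of 9 measured, 0 passed 2-fold in favour of CD8+ DCs and 2 in favour of CD8- DCs (median 0.00), beside 3.55% and 5.97% of all measured genes. Slc15a4, which encodes a lysosomal histidine and peptide transporter known for its part in Toll-like receptor signalling, was at 6.15 in CD8+ DCs, against 8.33 in CD8- DCs, a 4.56-fold difference. Slc15a3, its close relative, was at 3.86 in CD8+ DCs, just above the floor, and 6.58 in CD8- DCs, a 6.58-fold difference. Both rest on 1 measured probe set. Slc66a1, a lysosomal exporter of cationic amino acids, was at 8.02 in CD8+ DCs and 7.40 in CD8- DCs.

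The cytosolic aminoacyl-tRNA synthetases, which load amino acids onto transfer RNAs, were nearly level. All 19 with a probe set were measured and 0 reached 2-fold in either direction. Of all measured genes, 3.55% did so in favour of CD8+ DCs and 5.97% in favour of CD8- DCs. Of the 19, 16 were higher in CD8+ DCs and 3 lower (Mars1, Vars and Wars), with a median of 0.20, against 0.03 over all measured genes. Over all 11404 measured genes, 5999 were higher in CD8+ DCs and 5113 lower. Iars was at 8.45 in CD8+ DCs and 7.98 in CD8- DCs, and Qars, the brightest probe set of the list, was at 9.71 and 9.29. The pooled SD between measured probe sets of a gene was 0.30 over all genes. It is a spread within genes on the same arrays, and no measure of error for a median of 19 genes.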
